A study of Mus musculus with 48 samples.

Results

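Transport proteins set which ions, hormones, metabolites and drugs cross the membrane of a microglial cell, the resident macrophage of the brain. The transcripts of 5 of them are described here, Slc12a2, Slc24a3, Slco2b1, Abcc3 and Abcg2, out of 478 genes listed in the authors' deposited tables. They were chosen by symbol, as a chloride importer, a sodium-calcium exchanger, an organic anion carrier and a pair of ABC exporters, at a time when their ratios and p-values in these tables were already known. The values below are therefore a description of these genes, and their p-values are not independent support. All 5 symbols were found in every table.

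The cells were hippocampal microglia of mouse pups of the strain Balbc/Byj, 17 days old and of both sexes, in 3 rearing groups. The control group (CTL), the LB group and the UPS group each held 16 pups, 8 of each sex, and the labels name no allele or drug for any of the 48 libraries. As background, LB stands for rearing with limited bedding and nesting material, and UPS adds unpredictable stress. About 60000 microglia per pup were isolated on a Percoll gradient, sorted by flow cytometry and lysed, and transcripts were counted with the nCounter glial panel, which reads barcoded probes without amplification. The libraries were run in 4 batches of 12, each with 2 pups of every rearing group and sex. Each group and sex drew on 4 to 5 litters, so some pups were littermates. Litter is not named as a term of the deposited comparisons. Where littermates are alike, the p-values come out too small and the intervals too narrow.

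The available values were the authors' own comparisons of each pair of rearing groups, with the sexes pooled: a log2 ratio, the same ratio on a linear scale, a p-value, and a p adjusted by Benjamini-Hochberg over the 478 genes. No values of single libraries were used, so the level of a transcript in each pup, its spread within a group, and the depth behind it are unknown. The precision of each ratio is given as a standard error recovered from the ratio and its p-value, and as the 95% interval that follows from it. A gene passed when its adjusted p was below 0.05. Which of the groups is the numerator is not stated in the headers, and signs are left as deposited. If the later-named group is the numerator, a positive ratio means more transcript in the later-named group, and the reverse reading turns every sign together. The 3 pairs share their groups, and the LB and UPS ratio of a gene equals its CTL and UPS ratio minus its CTL and LB ratio to within 0.003, so the 3 ratios of a gene are not independent of each other.

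All 12 microglial marker genes looked for were listed in the authors' deposited tables, among them Tmem119, P2ry12 and Cx3cr1. Of 78 markers of other brain and blood cells 12 were listed, with none for choroid plexus or monocytes. A gene that is not listed may be off the panel or below the authors' count minimum, and these cannot be told apart here.

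As background, the genes fall into secondary active carriers and ATP-driven exporters. The carriers Slc12a2 (the cotransporter NKCC1) and Slc24a3 (the exchanger NCKX3) run on ion gradients. The first brings sodium, potassium and chloride into the cell and so sets intracellular chloride and cell volume. The second extrudes calcium in exchange for sodium, together with potassium. Slco2b1 (Oatp2b1) takes up organic anions such as steroid sulfates and many drugs. Abcc3 (Mrp3) exports glucuronide and other conjugates, and Abcg2 (Bcrp) exports a wide range of drugs and is known in brain mainly from the lumenal side of capillary endothelium.

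Between LB and UPS 2 of the 5 transporters passed, Slco2b1 and Slc12a2, with opposite signs, in a comparison in which 6.28% of all genes passed (4.6% on the positive side, 1.67% on the negative side). Against CTL none of the 5 passed in either stress group. All differences were small. The ratio farthest from zero among the 15 in the authors' deposited tables was that of Slc24a3 between CTL and LB, at 0.23 on the log2 scale. In lysates of sorted cells, fewer cells with a transcript and less transcript per cell cannot be told apart.

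**Figure D1:**
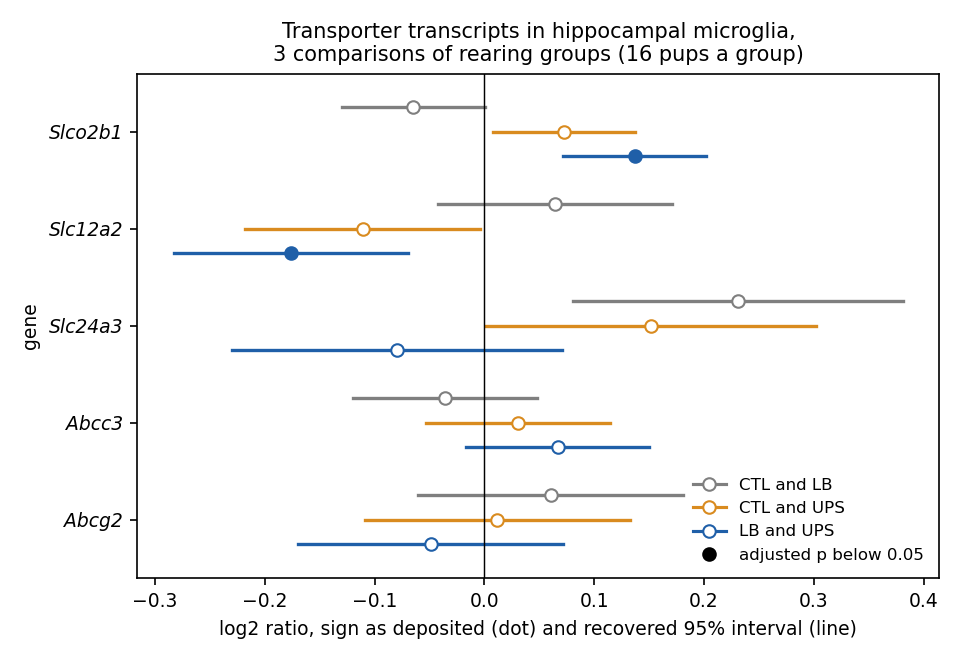
Log2 ratios of the 5 transporters (dots, sign as deposited) with recovered 95% intervals (lines) in the 3 comparisons of rearing groups, 16 pups a group; filled dots have an adjusted p below 0.05. Filled dots are seen for Slco2b1 (0.14) and Slc12a2 (-0.18) between LB and UPS, on opposite sides of zero.

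Slco2b1 had the smallest p of the 5. In the authors' deposited table its log2 ratio between LB and UPS was 0.14 (p = 0.000116, adjusted p = 0.00461), a difference of 9.96% between the groups. The recovered standard error was 0.032 and the 95% interval ran from 0.072 to 0.20, or from 1.05-fold to 1.15-fold. By the estimates, each stress group lay on its own side of CTL. In the authors' deposited tables the ratio between CTL and LB was -0.065 (p = 0.051, adjusted p = 0.413) and that between CTL and UPS 0.072 (p = 0.0302, adjusted p = 0.253). Neither passed. The corresponding intervals ran from -0.13 to 0.00014 and from 0.0075 to 0.14. By the estimates alone, the steps to either side of CTL were nearly equal in size. Whether they differed was not tested.

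Slc12a2 had the same order of groups with the sign turned. In the authors' deposited table its log2 ratio between LB and UPS was -0.18, a linear ratio of 0.885 (p = 0.00183, adjusted p = 0.0301). The recovered interval ran from -0.28 to -0.069, with a standard error of 0.053. In the authors' deposited tables LB stood 0.064 from CTL (p = 0.229, adjusted p = 0.648) and UPS -0.11 (p = 0.041, adjusted p = 0.298). CTL again lay between the stress groups, and neither step from CTL passed. Whether the steps differed in size was not tested. The pass between LB and UPS was near the threshold. Its size of 0.176 in the authors' deposited table compares with 0.173 needed at this standard error and the largest p that passed. When all 3 tables were adjusted as 1 family its adjusted p was 0.0525, and with Benjamini-Yekutieli adjustment it was 0.204, so the call was lost under both.

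Slc24a3 had the largest ratios against CTL and no pass. In the authors' deposited table its log2 ratio between CTL and LB was 0.23, or 1.17-fold, and it ranked 8 of 478 by p (p = 0.0034, adjusted p = 0.194). The recovered interval ran from 0.081 to 0.38. Between CTL and UPS the ratio was 0.15, or 1.11-fold, in the authors' deposited table (p = 0.0483, adjusted p = 0.304, interval 0.0019 to 0.30). By the estimates, both stress groups lay on the same side of CTL, LB farther out, but neither step from CTL passed. Between LB and UPS the ratio was -0.080 in the authors' deposited table (p = 0.29, adjusted p = 0.587), with an interval from -0.23 to 0.070, so the order of the stress groups is not resolved.

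The exporters had smaller ratios, and none of their intervals left out zero. In the authors' deposited tables the log2 ratios of Abcc3 were -0.036 between CTL and LB, 0.030 between CTL and UPS and 0.067 between LB and UPS, with adjusted p of 0.788, 0.751 and 0.394. Its order of groups was that of Slco2b1, with CTL in the middle. The interval between LB and UPS ran from -0.017 to 0.15, so a difference of more than 1.11-fold lay outside it. Abcg2 had, in those deposited tables of the authors, log2 ratios of 0.060, 0.012 and -0.049 in the same order of comparisons, with adjusted p of 0.748, 0.937 and 0.684. Its order of groups was that of Slc24a3, with CTL at one end and LB at the other. Differences of more than 1.13-fold for Abcg2 between CTL and LB, 1.10-fold between CTL and UPS and 1.12-fold between LB and UPS lay outside its intervals.

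By the ratios alone, LB stood at one end of the order of the 3 groups for all 5 transporters. Neighbours in that order did not pass for any of the 5, and for Slc24a3, Abcc3 and Abcg2 the ends did not pass either, so the order is that of the estimates. CTL was in the middle for 3 of them (Slco2b1, Slc12a2, Abcc3) and UPS for 2 (Slc24a3, Abcg2). Over all 478 genes LB was at one end for 69.9%, so this order is common on the panel. CTL was in the middle for 37.0% and UPS for 32.8% of all genes. The order is the same for either reading of the sign. The ends of the order were 0.23 apart on the log2 scale for Slc24a3, 0.18 for Slc12a2, 0.14 for Slco2b1, 0.067 for Abcc3 and 0.060 for Abcg2.

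Precision differed between the transporters, and the larger ratio was not always the one that passed. Slco2b1 had the smallest recovered standard error of the 5, 0.032, smaller than that of most genes: only 11.9% of the 478 genes had a smaller one. That of Abcc3 was 0.041, of Slc12a2 0.053, of Abcg2 0.060 and of Slc24a3 0.074, and 78.0% of genes had a smaller one than Slc24a3. A ratio of 0.14 passed for Slco2b1 between LB and UPS, while a ratio of 0.15 for Slc24a3 between CTL and UPS in the authors' deposited table did not. At these standard errors, and at the largest p that passed in each table, Slco2b1 needed 1.08-fold to pass between LB and UPS and Slc24a3 needed 1.18-fold between CTL and UPS. No gene passed between CTL and LB, where a single gene to pass alone would have needed 1.10-fold for Slco2b1 and 1.25-fold for Slc24a3. Depth and abundance per gene are unknown, so what sets these standard errors was not tested.

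**Figure D2:**
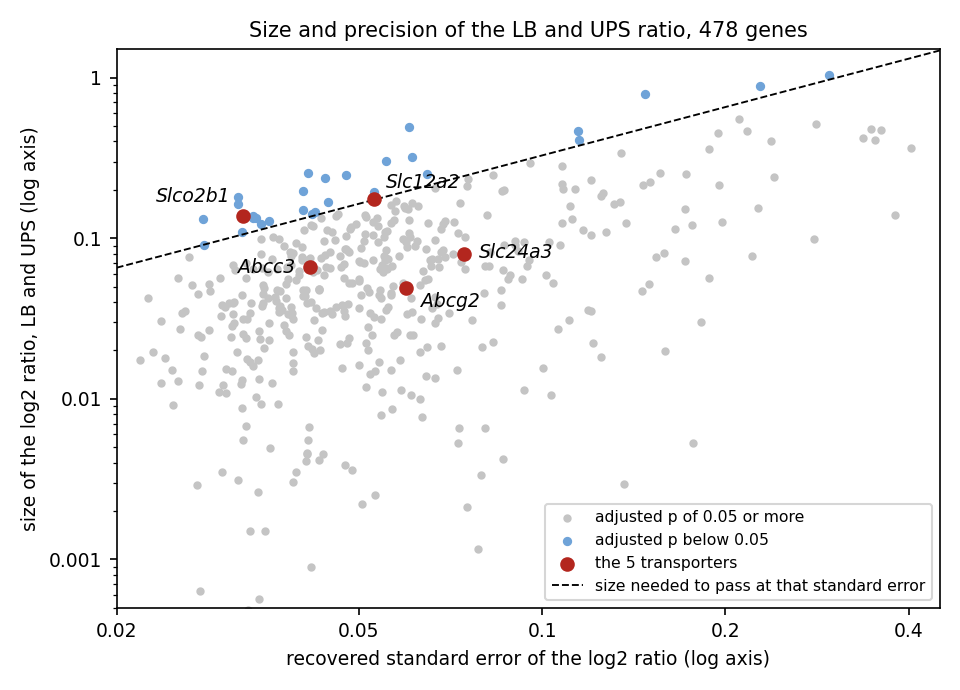
Size of the log2 ratio between LB and UPS against its recovered standard error, both on log axes, for 478 genes (1 point a gene; blue points and the 2 highest red points have an adjusted p below 0.05). The dashed line is the size needed to pass; Slco2b1 lies well above it at a standard error of 0.032, Slc12a2 just above it at 0.053, and Abcc3, Abcg2 and Slc24a3 below it.

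Counts of the transporters were read against the whole panel. Between CTL and LB 0 of 5 passed, as did 0% of all genes, and 1 (Slc24a3) had an unadjusted p below 0.05 beside 11.7% of all genes. Between CTL and UPS 0 of 5 passed beside 4.81% of all genes, and 3 (Slco2b1, Slc12a2, Slc24a3) had an unadjusted p below 0.05 beside 16.3% of all genes. Between LB and UPS the 2 that passed, 1 of each sign, also were the 2 with an unadjusted p below 0.05, beside 18.8% of all genes. The 0 counts held with Benjamini-Hochberg adjustment in each table, over the 3 tables together, and with Benjamini-Yekutieli adjustment. The median size of the log2 ratio over the 5 was 0.064, 0.072 and 0.080 in the 3 comparisons as ordered above, beside 0.043, 0.051 and 0.054 over all genes. Since the genes were picked with these values known, nothing is read from these counts or medians.

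Other transport genes of the panel were taken by symbol: 10 further solute carriers, 2 further ABC family genes, 7 ion channel genes and 10 ion pump genes, 29 in all. None of the 29 passed between CTL and LB, where 2 had an unadjusted p below 0.05. Between CTL and UPS 2 of 29 passed, 1 of each sign, beside 4.81% of all genes, and 5 had an unadjusted p below 0.05. Between LB and UPS 3 of 29 passed, 1 positive and 2 negative, beside 6.28% of all genes, and again 5 had an unadjusted p below 0.05. Their median log2 ratios were -0.018, -0.0076 and 0.0050 in the 3 comparisons, beside 0.0035, -0.0025 and -0.010 over all genes. The signs were mixed in each class, apart from the pair of further ABC genes between CTL and LB, both negative.

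Among the other solute carriers, Slc1a3, a glutamate transporter, stood at -0.039 for CTL and LB, 0.21 for CTL and UPS and 0.25 for LB and UPS on the log2 scale of the authors' deposited tables (adjusted p 0.842, 0.0461 and 0.00995). Slc1a3 is also a defining astrocyte gene. The only other astrocyte marker listed, Glul, had the same signs, at -0.047, 0.11 and 0.15 in the authors' deposited tables. Glul did not pass in any comparison (adjusted p = 0.117 between LB and UPS). Slc25a17, a peroxisomal cofactor carrier, stood at 0.069, -0.065 and -0.13 in the authors' deposited tables, of which only the last passed (adjusted p = 0.00813). Its sign was that of Slc12a2 in each comparison, with CTL in the middle. Slc25a12, a mitochondrial aspartate-glutamate carrier, stood at -0.091, 0.067 and 0.16 in the authors' deposited tables, and none passed.

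The further genes of the ABC family did not pass. Abca1, which exports cholesterol, stood at -0.076, 0.026 and 0.10 in the authors' deposited tables, with CTL in the middle as for Abcc3 (adjusted p = 0.215 between LB and UPS). Abce1, which belongs to the family by sequence and recycles ribosomes rather than transporting solutes, had ratios of -0.054, -0.066 and -0.012 there, again without a pass.

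Of the channel genes, Kcnk13, which encodes the potassium channel THIK-1 of microglia, stood at 0.0044, -0.11 and -0.11 in the authors' deposited tables, and passed between CTL and UPS (adjusted p = 0.0461) and between LB and UPS (adjusted p = 0.0244). Adjusting the 3 tables as 1 family, or each table by Benjamini-Yekutieli, ended the calls of Kcnk13 and Slc1a3 between CTL and UPS, and centring ended that of Kcnk13. Between LB and UPS, Benjamini-Yekutieli adjustment ended the calls of Kcnk13, Slc1a3 and Slc25a17, while adjustment over the 3 tables together and centring kept all 3. Cacnb2, a calcium channel subunit, had -0.17, -0.26 and -0.096 in the authors' deposited tables and did not pass (adjusted p = 0.0869 between CTL and UPS). P2rx7, the ATP-gated cation channel, had 0.055, 0.052 and -0.0029 there, also without a pass.

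None of the 10 ion pump genes passed in any comparison, and none had an unadjusted p below 0.05. Among those of smallest p in the authors' deposited tables were subunits of the proton pump that acidifies lysosomes, Atp6v1g1 (0.012, 0.099 and 0.087) and Atp6v1b2 (-0.066, -0.025 and 0.041). Of 19 textbook regulators of these transporters, such as the Wnk kinases, Stk39 and the nuclear receptors Nr1i2 and Nr1i3, none was listed.

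**Figure D3:**
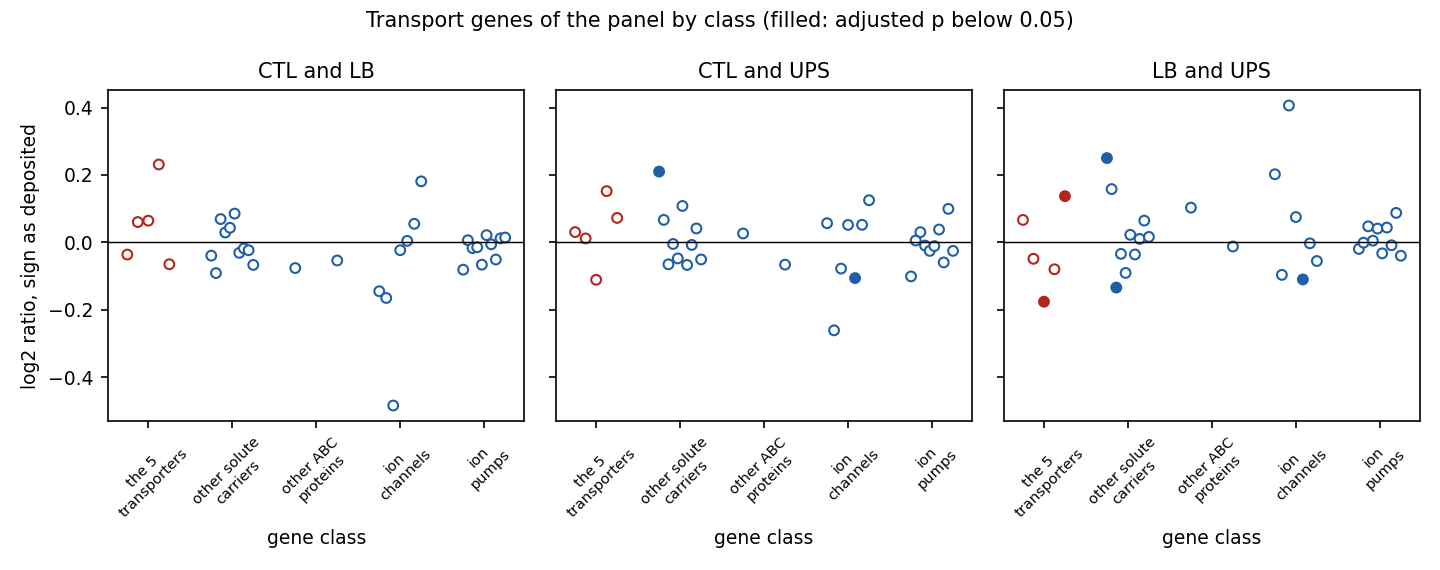
Log2 ratios (sign as deposited) of the 5 transporters (red) and of 29 other transport genes (blue) by class in the 3 comparisons, 1 point a gene; filled points have an adjusted p below 0.05. No point is filled between CTL and LB, and the ion pump genes, from -0.040 to 0.087 between LB and UPS, stay near zero.

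The genes whose ratios lay nearest to those of each transporter were found by Euclidean distance over the 3 log2 ratios, which hold 2 independent values a gene. Nearest to Slco2b1 was C1qa, a chain of complement C1q, at a distance of 0.0064 where the median gene was 0.20 away. Its ratios in the authors' deposited tables were -0.063, 0.069 and 0.13, and it too passed between LB and UPS. Next came Tnfrsf11a, the receptor RANK, at 0.028. Nearest to Slc12a2 were Acsl3, an acyl-CoA synthetase, at 0.031 and Grn, the lysosomal protein progranulin, at 0.033, and neither passed in any comparison. Nearest to Slc24a3 were Hmox1, the heme-degrading oxygenase, at 0.014 and Gla, a lysosomal galactosidase, at 0.040. Hmox1 stood at 0.24, 0.16 and -0.073 in the authors' deposited tables, with a standard error of 0.095, and did not pass. For Abcc3 the nearest were the endothelial gene Pecam1 at 0.0033 and the ubiquitin ligase Ube3c at 0.0035, and for Abcg2 Selenos at 0.0063 and the phosphatase Ptpn11 at 0.0072. For Abcc3 and Abcg2, whose ratios are close to zero, the median gene was only 0.14 and 0.13 away, so a short distance there says less.

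Markers of other cells were counted in the same comparisons. Of the 12 listed, 10 had a positive ratio between LB and UPS, 6 between CTL and UPS and 2 between CTL and LB. Over all 478 genes 210, 233 and 252 had a positive ratio in these comparisons. Slc1a3 and Stab1, a scavenger receptor of border macrophages, passed between CTL and UPS and between LB and UPS, where Stab1 had ratios of 0.20 in both authors' deposited tables. These 2 of 12 stand beside 4.81% and 6.28% of all genes. An unadjusted p below 0.05 was found for 5 of the 12 between LB and UPS, all positive, beside 18.8% of all genes. Between CTL and UPS it was found for 4, 2 of each sign, beside 16.3%, and between CTL and LB for 2, both negative, beside 11.7%. Slco2b1 and Abcg2 are also expressed by brain endothelium. The 2 endothelial markers listed, Cd34 and Pecam1, had ratios of 0.018 and 0.068 between LB and UPS in the authors' deposited tables. Between CTL and LB their ratios there were -0.42 and -0.034. Between CTL and UPS they stood at -0.40 (adjusted p = 0.0511) and 0.033 (adjusted p = 0.872) in the authors' deposited table. Cd34 thus just missed the threshold there. Pecam1 had the sign of Slco2b1 in each comparison, but its recovered interval included zero each time. Cd34 had the sign of Slco2b1 between CTL and LB and between LB and UPS, and the opposite sign between CTL and UPS. Abcg2 had the sign opposite to Cd34 in each comparison, and shared the sign of Pecam1 only between CTL and UPS. Neither endothelial marker passed in any comparison. Among the 12 microglial markers Tmem119 passed between LB and UPS, with a ratio of 0.46 in the authors' deposited table. The other 11 did not, in a comparison where 6.28% of all genes passed. The median microglial marker was at -0.0063 there. The part of any of these cells in the ratios of Slco2b1 or Slc12a2 was not tested.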

How the data were processed

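Hippocampal microglia of 48 pups were counted on the nCounter glial panel. Per the series text, the authors compared each pair of rearing groups in nSolver's advanced module with batch as a covariate, and set a minimum of 20 counts for expressed genes. How counts were normalized, and with which version, is not given in the sources used here. Per the file headers, the deposited tables hold log2 ratios, linear fold ratios, p-values and Benjamini-Hochberg adjusted p-values. No model was refitted. P-values were adjusted again over the 478 genes of each table, which called the same number of genes as the deposited column. Standard errors were recovered from each log2 ratio and p with a t distribution (SciPy 1.17.1). Of 6 candidate models, 42 residual degrees of freedom (all libraries, rearing and batch) matched the 3 tables best, with a median mismatch of 0.223%, against 0.278% to 0.321% for the other models of all libraries and 1.37% to 1.67% for 2 groups. The recovery was tested only on data simulated from that same model of all libraries, rearing and batch. That test does not bear on whether the authors' comparisons follow the model. Each gene's standard error came from its smallest p.

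The members and lists were chosen with earlier results of these data known. Named were the 5 transporters, other transport genes past the threshold and the 3 of smallest p in each class, the 2 genes nearest to each transporter, and markers beside them; some genes that this rule names are not reported here. Of 478 symbols 477 matched a RefSeq gene table (GRCm38.p6). The tables name no build, so no coordinates are given.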

Additional observations from a re-analysis of the deposited data

How the results depend on the processing

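The direction of every ratio of the 5 transporters was kept when the ratios were centred on the median of all genes, which moved them by 0.0035, 0.0025 and 0.010 on the log2 scale in the CTL and LB, CTL and UPS, and LB and UPS tables. Interval bounds moved by at most 0.0046 with a normal distribution or with degrees of freedom of 2 groups alone. Between LB and UPS 2 transporters passed, and 1 (Slco2b1) with the 3 tables adjusted together or with Benjamini-Yekutieli adjustment, where Slc12a2 was lost. Of the 29 other transport genes, 2 passed between CTL and UPS, 0 with the tables adjusted together, 0 with Benjamini-Yekutieli adjustment and 1 (Slc1a3) after centring, and between LB and UPS 3 passed and 0 did with Benjamini-Yekutieli adjustment. The authors' deposited adjusted p gave the same counts throughout. Pups could not be left out in turn, since values per library were not used here. No paired analysis was possible because the tables hold comparisons of groups and no values per pup. The number of counts behind each ratio, and so the part of counting error in it, is unknown.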
